A study of Mus musculus with 2 samples.

Results

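The MAP kinase phosphatases are enzymes of the dual-specificity phosphatase (DUSP) family that switch off MAP kinases. The 10 genes described here, Dusp1, Dusp2, Dusp3, Dusp4, Dusp5, Dusp6, Dusp7, Dusp8, Dusp10 and Dusp16, were taken by symbol from the 55450 genes of the deposited tables, of which 10652 were detected, that is, reached 1 TPM in each library. TPM (transcript abundance scaled to a fixed library total) is a relative abundance corrected for length. The libraries were made from polyadenylated RNA of primary macrophages that had been derived from bone marrow of C57BL/6J mice and exposed for 30 min to 100 ng/ml of a bacterial ligand. One label names the ligand lipid A, the part of lipopolysaccharide that TLR4 senses, while the source and treatment labels name lipoprotein A, of the class protein; which of them was used is not settled by the labels.

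There were 2 libraries, biological replicates 1 and 2 of this single group. They have separate biosample records but a common donor record, the age and sex of the mice were not collected, and the number of mice behind each library is not stated. No untreated library was analysed here, so the values give the state of the family 30 min into treatment, and no induction or repression can be read from them. Replicate 1 held 37779382 and replicate 2 held 51893548 expected counts over genes. A ribosomal RNA gene, CT010467.1, took 10.9% of these in replicate 1 and 5.05% in replicate 2, and with it 104489 and 47366 TPM.

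MAP kinases (ERK, JNK and p38) are activated by phosphorylation of a threonine and a tyrosine in the same loop, and a dual-specificity phosphatase removes the phosphate from both residues. Many of these phosphatases are themselves transcribed in response to the kinases that they inactivate, which makes them a negative feedback loop. In macrophages exposed to Toll-like receptor ligands, Dusp1 is known as a brake on p38 and JNK that limits cytokine production, and Dusp10 and Dusp16 are known mainly as phosphatases of JNK and p38. Classical members carry a kinase-docking domain in front of the catalytic domain. They are grouped by where they act: Dusp1, Dusp2, Dusp4 and Dusp5 in the nucleus, Dusp6 and Dusp7 in the cytoplasm on ERK, and Dusp8, Dusp10 and Dusp16 on JNK and p38 in both compartments. Dusp3 is a small atypical member without the docking domain.

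The catalytic site is what the 10 genes share. It consists of a histidine, the cysteine that attacks the phosphate, 5 further residues and an arginine. This pattern, with a glycine required in the middle of the 5 residues, was searched for in the GENCODE M21 transcripts. The coding sequence of 1 transcript of each gene was used. Each of the 10 coding sequences held exactly 1 match. The 24 coding bases of the site are shown 5′ to 3′ to let the genes be compared, with the codon of the catalytic cysteine in capitals.
Dusp1: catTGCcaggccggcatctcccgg
Dusp2: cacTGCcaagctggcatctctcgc
Dusp4: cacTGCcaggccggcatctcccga
Dusp5: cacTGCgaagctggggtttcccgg
Dusp6: catTGCttggcaggtatcagccgc
Dusp7: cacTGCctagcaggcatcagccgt
Dusp8: cacTGTctggctggcatctctcgc
Dusp10: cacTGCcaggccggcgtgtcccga
Dusp16: cacTGCttagctgggatctctcgc
Dusp3: catTGCcgcgagggctacagccgc
The cysteine was codon 258 of 367 in Dusp1, codon 334 of 422 in Dusp7 and codon 244 of 660 in Dusp16, whose coding sequence goes on well past the site. In Dusp3 it was codon 124 of 185. Dusp8 was the 1 gene with the codon TGT in place of TGC.

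Dusp1 led the family in both libraries, with 59.8% of its TPM in replicate 1 and 57.5% in replicate 2. It was at 575 TPM in replicate 1 and 679 TPM in replicate 2, a mean of 627 ± 73.3 TPM (SD, n = 2), from 21220 and 34916 counts. Those levels exceeded 98.2% and 98.4% of the detected protein-coding genes. Dusp2, known from activated leukocytes and acting on ERK and p38, was at 137 and 285 TPM, a mean of 211 ± 105 TPM, so the libraries lay further apart than for Dusp1. Dusp5, a nuclear phosphatase of ERK, was at 49.4 and 34.9 TPM, a mean of 42.1 ± 10.3 TPM. Dusp4, which acts on ERK and JNK, was at 7.0 and 22.6 TPM, a mean of 14.8 ± 11.0 TPM. Replicate 2 was the higher for Dusp1, Dusp2 and Dusp4, and replicate 1 for Dusp5. The 4 nuclear members together stood at 769 and 1021 TPM, which was 79.8% and 86.5% of the family total of 963 and 1181 TPM. As the RNA came from whole cultures, fewer expressing cells and less RNA per cell cannot be told apart at any level given here.

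The cytoplasmic phosphatases of ERK were lower as a class, at 44.1 and 38.4 TPM together. Dusp7 accounted for most of this with 30.9 TPM in each library, and its SD of 0.0354 TPM was the smallest relative to the mean in the family. In a second deposited quantification Dusp7 was at 21.8 and 25.8 TPM, so this closeness depended on the quantification. Dusp6, a well-known feedback target of ERK signalling, was at 13.2 and 7.59 TPM, a mean of 10.4 ± 3.95 TPM.

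The JNK and p38 phosphatases were the lowest class, with a sum of 6.17 and 6.67 TPM, or 0.641% and 0.565% of the family total. Dusp16 was at 3.83 and 4.22 TPM, and Dusp8, best known from brain, at 1.60 and 1.82 TPM. Dusp10 was at 0.74 and 0.63 TPM, from 47 and 56 counts. It was the member below the detection limit in both libraries, while its counts lay far above the 3 counts that a count of 0 allows. The other 9 members were detected. At least 10 TPM in each library was reached by 5 of the 10 (Dusp1, Dusp2, Dusp3, Dusp5 and Dusp7), and at least 100 TPM by 3 (Dusp1, Dusp2 and Dusp3).

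Dusp3, the atypical member, which dephosphorylates ERK and JNK and also other phosphoproteins, was at 144 and 115 TPM, a mean of 129 ± 20.5 TPM. It was thus the second gene of the family in replicate 1 and the third in replicate 2. In the order of mean levels, Dusp1, Dusp2, Dusp3, Dusp5, Dusp7, Dusp4, Dusp6, Dusp16, Dusp8 and Dusp10, the values of 2 of the 9 neighbouring pairs overlapped. These were Dusp2 with Dusp3 and Dusp4 with Dusp6, and in both pairs the order differed between the libraries. The other 7 pairs kept their order in both, with the closest means in Dusp5 and Dusp7, which were 1.36-fold apart.

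**Figure D1:**
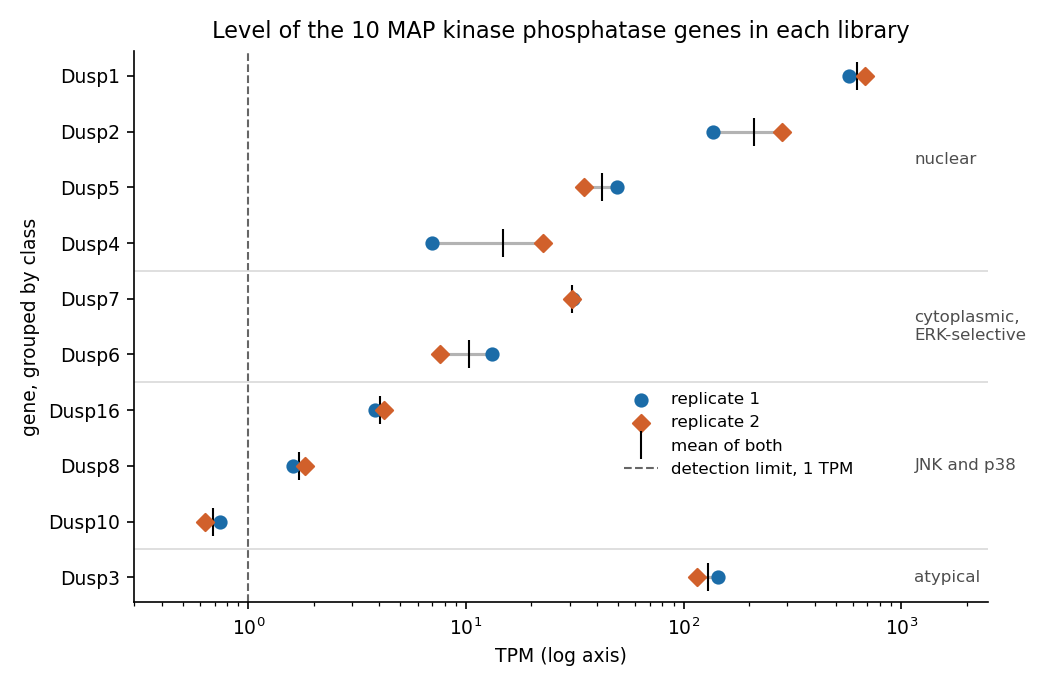
TPM of the 10 genes on a log axis, grouped by class, with a blue circle for replicate 1, an orange diamond for replicate 2 and a black tick for their mean. Dusp1 lies at 575 and 679 TPM, the 3 JNK and p38 phosphatases lie at 4.22 TPM or below, and Dusp2 and Dusp4 have the widest gaps between the libraries, with replicate 2 the higher.

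The question that 2 replicates of a single group can answer is how far the members differed between the libraries. Expected counts were rounded and scaled by TMM (trimmed mean of M values), and a two-sided exact binomial test per gene with Benjamini-Hochberg adjustment over all 14102 genes with 10 or more counts asked whether the libraries differed by more than counting error. It sets these libraries against each other and no conditions, and no replicate stands behind its calls. All 10 members could be tested. Beyond counting error (adjusted p of 0.05 or less), 3 were higher in replicate 1, against 29.3% of all genes tested, and 3 were higher in replicate 2, against 30.0% of all genes tested. The members' counts are thus near the share of all genes, and most genes of this depth differed by more than counting error. By a rule of size, 2 members were more than 1.5-fold higher in replicate 1 (10.8% of all genes tested) and 2 were more than 1.5-fold higher in replicate 2 (18.3%). The median log2 ratio of replicate 1 to replicate 2 was -0.03 over the members and -0.01 over all genes tested. The spread between the libraries over 12258 genes was a biological coefficient of variation of 0.25 in edgeR.

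Dusp4 had the largest ratio of the family. It had 433 counts in replicate 1 and 1963 in replicate 2, and its scaled count was 3.01-fold higher in replicate 2 (95% counting interval 2.72 to 3.35, log2 ratio of replicate 1 to replicate 2 -1.59, adjusted p = 4.2e-116 by the exact binomial test). A smaller ratio, in either direction, was found for 92.4% of all genes tested. Dusp2 had 4446 and 12488 counts and was 1.87-fold higher in replicate 2 (1.80 to 1.93), and 82.8% of all genes tested had a smaller ratio. Dusp1 was also called higher in replicate 2, by 1.09-fold (1.08 to 1.11), a small difference at a large count, and 22.9% of all genes tested had a smaller ratio. In the second deposited quantification Dusp1 had a log2 ratio of -0.02 and was no longer called (adjusted p = 0.23, exact binomial test).

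Dusp6, Dusp5 and Dusp3 went the other way. Dusp6 had 776 and 640 counts and was 1.82-fold higher in replicate 1 (1.64 to 2.03). Dusp5 had 2725 and 2703 counts and was 1.52-fold higher in replicate 1 (1.44 to 1.60), close to the 1.5-fold limit. Scaled by total counts, the log2 ratio of Dusp5 was 0.47 in place of 0.60, which is inside that limit. Dusp3 had 12702 and 14198 counts and was 1.35-fold higher in replicate 1 (1.31 to 1.38). The nuclear class therefore split, with Dusp1, Dusp2 and Dusp4 higher in replicate 2 and Dusp5 higher in replicate 1.

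The remaining 4 members were not called. Dusp7 had 1764 and 2609 counts and a log2 ratio of 0.02 (95% counting interval -0.06 to 0.11, exact binomial adjusted p = 0.67). Its direction depended on scaling: by total counts the log2 ratio was -0.11 (exact binomial adjusted p = 0.030), and in the second quantification 0.12 (adjusted p = 0.011). Dusp16, with 367 and 636 counts, had a log2 ratio of -0.20 (-0.39 to -0.02) and was not called (exact binomial adjusted p = 0.052). Its call depended on the setting: the log2 ratio was -0.34 by total counts (exact binomial adjusted p = 0.00089), -0.21 with DESeq2 size factors (0.048) and -0.08 in the second quantification (0.51). Dusp8, with 182 and 291 counts, had a log2 ratio of -0.09 (-0.36 to 0.18), and Dusp10 one of 0.34 (-0.26 to 0.92). At these counts a difference of the size seen for Dusp3 was not detectable for Dusp10.

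**Figure D2:**
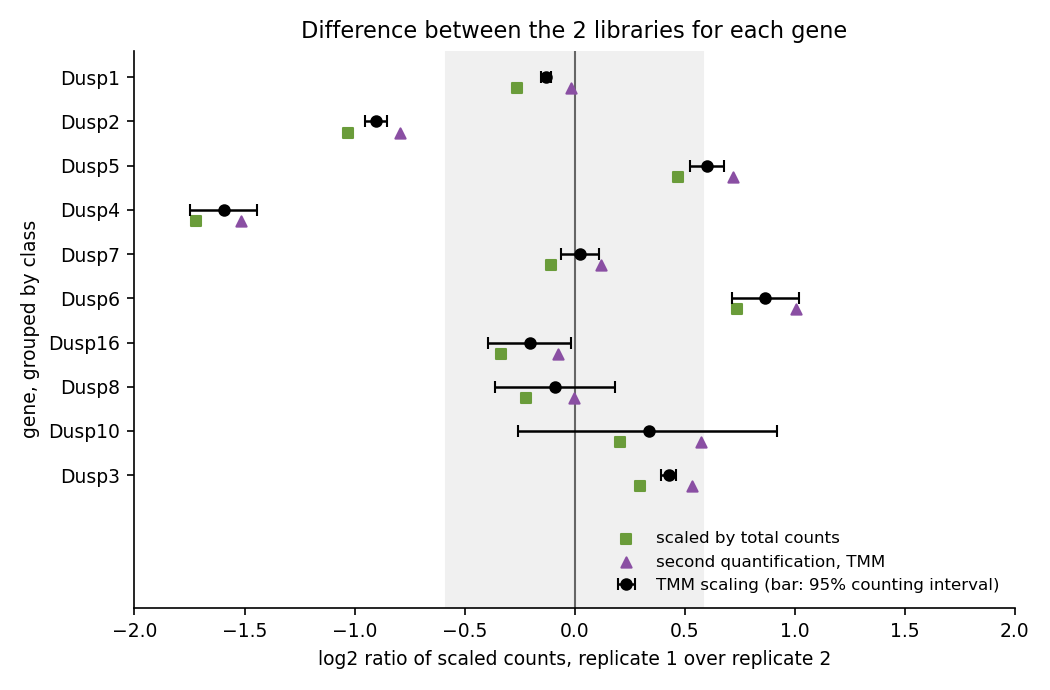
Log2 ratio of scaled counts, replicate 1 over replicate 2, for each gene, with the 95% counting interval under TMM scaling as a black point and bar, total-count scaling as a green square and the second quantification as a purple triangle. The grey band marks 1.5-fold. Dusp4 (-1.59) and Dusp2 (-0.90) lie left of the band and Dusp6 (0.87) right of it under all 3, Dusp5 (0.60) leaves it or not by scaling, and Dusp7 changes side of 0.

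**Figure D3:**
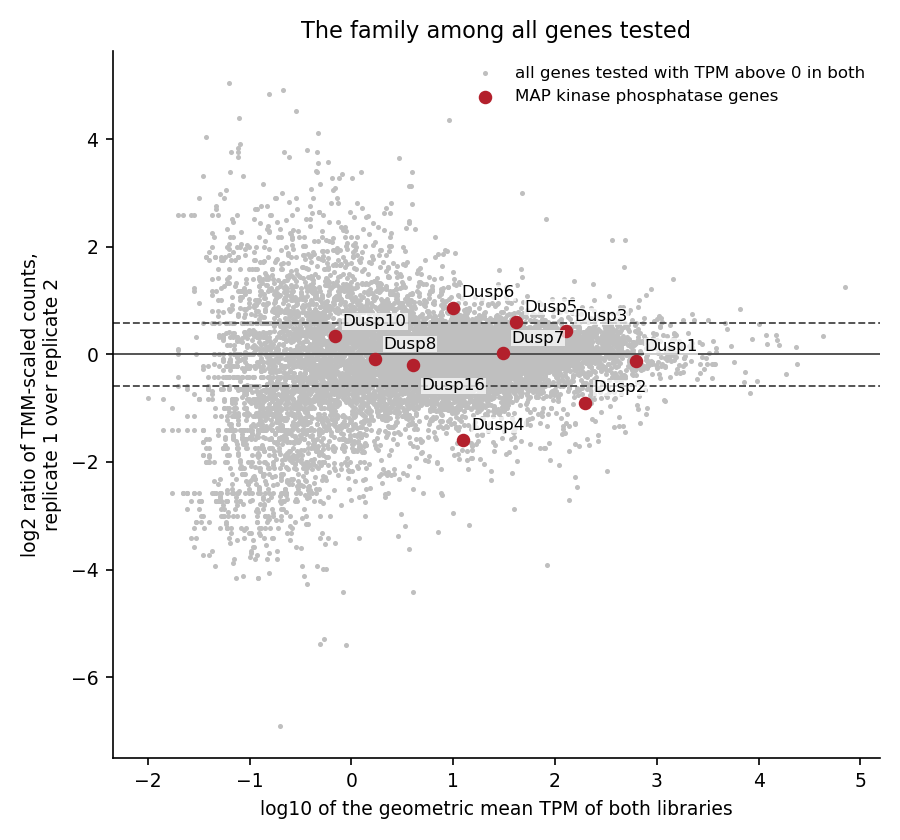
Log2 ratio of TMM-scaled counts, replicate 1 over replicate 2, against the log10 of the geometric mean TPM, for the genes tested that had a TPM above 0 in both libraries (grey) and the 10 members (red); dashed lines mark 1.5-fold. Dusp4, at -1.59, lies near the lower edge of the cloud at its level, while Dusp1, Dusp7, Dusp8 and Dusp16 lie within it near 0.

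Markers of other cells also differed between these libraries. Of 6 neutrophil markers 2 were detected, and the summed level of the 6 was 308 TPM in replicate 1 and 55.6 TPM in replicate 2. S100a8, at 124 and 18.1 TPM, and S100a9, at 183 and 37.1 TPM, made up nearly all of it, while the defining marker Ly6g had 1 and 0 counts. Of 5 dendritic cell markers 1 was detected, Itgax at 7.11 and 3.88 TPM, and the list summed to 9.05 and 4.78 TPM. Of 5 T cell markers 1 was detected, Cd4 at 111 and 82.2 TPM, with Cd8a at 0 counts and Cd3e at 2 and 0 counts (summed level 112 and 82.2 TPM), and of 5 B cell markers 1 was detected, Cd79b at 3.88 and 1.43 TPM, with Ms4a1 at 2 counts in each library (summed level 3.99 and 1.47 TPM). None of the 4 mast cell and basophil markers and none of the 4 stromal markers was detected. The summed levels of the neutrophil, dendritic cell, T cell and B cell lists stood higher in replicate 1. The T cell sum was nearly all Cd4 and the B cell sum nearly all Cd79b, so neither rests on more than 1 marker. In the dendritic cell list Xcr1, at 3 and 7 counts, went the other way. Dusp3, Dusp5 and Dusp6 were also higher in replicate 1, and the part of other cells in the ratios of the family was not tested. All 6 macrophage markers were detected, with Lyz2 at 15907 and 22127 TPM and Adgre1, which encodes F4/80, at 800 and 710 TPM. Their summed level was 21353 and 27246 TPM, most of it Lyz2. Of the 6, 4 were called higher in replicate 1 and 2 in replicate 2, against 29.3% and 30.0% of all genes tested.

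Transcript models could be compared as well, since the deposited tables split each gene's reads over the annotated transcripts. For 8 of the 10 members the same transcript took 50% or more of the gene's TPM in both libraries. Dusp4 and Dusp5, which are among the 8, have only 1 annotated transcript each, so the annotation fixed their share at 100%. Dusp8 and Dusp10, with 2 annotated transcripts each, had all of their TPM on 1 of them. Dusp6-201 took 85.1% and 87.0% of Dusp6. The exceptions were Dusp1 and Dusp16.

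Dusp1 was divided between a pair of protein-coding models. Dusp1-206 took 58.5% of its TPM in replicate 1 and 49.98% in replicate 2, just short of the limit, and Dusp1-202 took 38.5% and 41.5%. Dusp1-202 encodes the full-length protein of 367 codons from a first exon of 563 bases. Dusp1-206 has a first exon of 161 bases followed by the same 3 exons, save 1 base at the end, and its reading frame of 174 codons keeps the catalytic site. In the second quantification the order depended on the library, with Dusp1-206 at 49.0% and 36.4% and Dusp1-202 at 47.3% and 52.5%. The division of Dusp1 reads between them is therefore uncertain. The annotated gene (ENSMUSG00000024190.7, chr17:26505590-26562128, minus strand, mm10) owes most of its length to Dusp1-201 and Dusp1-205, which were at 0 counts in both libraries.

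Dusp3-201, with 185 codons, took 62.1% and 72.6% of Dusp3, and Dusp3-206, with 117 codons, took 27.9% and 16.1%. The second quantification gave Dusp3-206 only 7.80% and 2.80%. Dusp7-201 took 70.0% and 75.7% of Dusp7, and Dusp7-204, a short model with no reading frame, took 28.4% and 22.4%, but 5.07% and 3.46% in the second quantification. For Dusp16 the model of 660 codons, Dusp16-201, took 49.9% and 62.6%, the model of 338 codons, Dusp16-202, took 36.6% and 29.1%, and the second quantification gave Dusp16-201 80.2% and 88.0%. Both quantifications ranked the same model first for these 3 genes in both libraries.

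**Figure D4:**
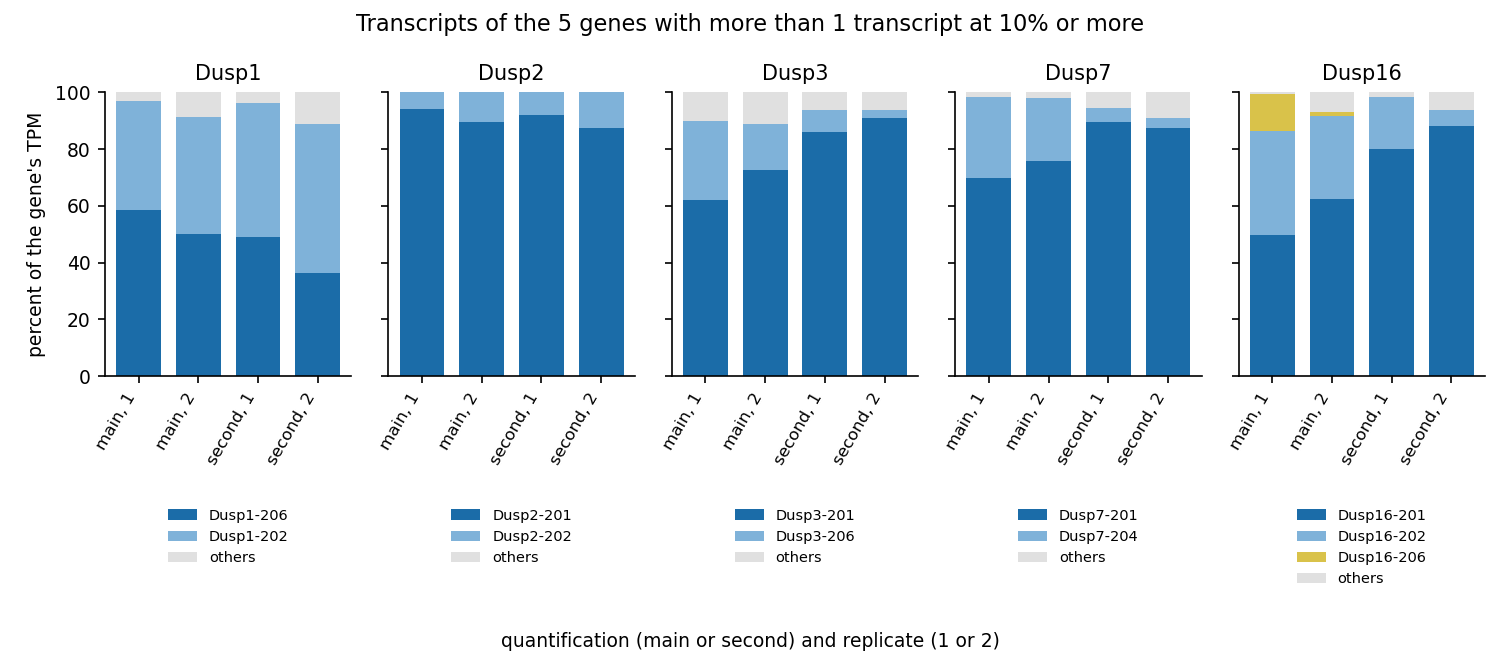
Percent of each gene's TPM on its transcripts, as stacked bars, for the 5 genes with more than 1 transcript at 10% or more, in replicates 1 and 2 of the main and of the second quantification. Dusp1-206 and Dusp1-202 change order between quantifications in replicate 2, whereas Dusp2-201, Dusp3-201, Dusp7-201 and Dusp16-201 lead in all 4 bars.

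Models with a retained intron, which were examined after their values had been seen, were annotated for Dusp1, Dusp2 and Dusp16. Such models carry an intron that is spliced out of the mature mRNA. In Dusp1 they took 2.50% of the counts in replicate 1 (95% Wilson interval 2.30% to 2.72%) and 6.60% in replicate 2 (6.34% to 6.86%), counting error only. In TPM these models were at 16.9 and 58.1, 3.43-fold higher in replicate 2, while the other Dusp1 models were at 559 and 621, 1.11-fold higher in replicate 2. Dusp2 had 2.21% of its counts on Dusp2-202 in replicate 1 (1.81% to 2.68%) and 3.96% in replicate 2 (3.64% to 4.32%), or 7.98 and 29.9 TPM. In Dusp16 the model had 4.6 and 0.71 counts, too few to compare. The direction in Dusp1 and Dusp2 was that of most genes: of 4018 genes at 10 TPM or more with such a model, 78.1% had a higher share of TPM on it in replicate 2, with a median share of 0.904% in replicate 1 and 2.22% in replicate 2.

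Promoter sequence was examined for motifs of transcription factors that kinase signalling is known to act on. RefSeq windows on GRCm38.p6, 250 bases before to 50 bases after the annotated start, were matched for 9 of the 10 members (not Dusp4). They were searched on both strands for the cAMP response element (TGACGTCA), the AP-1 site (TGANTCA), the CArG box, which serum response factor binds, and the kappa-B site. No match of one overlapped a match of another. The cAMP response element, which reads the same on both strands, was found in 2 of 9 members, Dusp1 and Dusp8, against 1.79% of 32851 promoter windows, and the CArG box in 1 of 9, Dusp5, against 1.63%. AP-1 (7.81% of all windows) and kappa-B (8.46%) sites were in none of the 9 windows, which says only that these letters are absent there. The 3 windows with a match follow, to show where the matches lie, with the matched letters in capitals, each read 5′ to 3′ on the gene's strand.
Dusp1 (chr17:26508423-26508722, minus strand): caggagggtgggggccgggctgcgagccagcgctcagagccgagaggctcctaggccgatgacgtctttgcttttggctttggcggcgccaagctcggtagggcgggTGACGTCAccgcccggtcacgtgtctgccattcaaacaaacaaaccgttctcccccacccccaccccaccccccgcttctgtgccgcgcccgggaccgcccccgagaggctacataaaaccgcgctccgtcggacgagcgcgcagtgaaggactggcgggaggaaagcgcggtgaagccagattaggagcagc
Dusp5 (chr19:53528895-53529194, plus strand): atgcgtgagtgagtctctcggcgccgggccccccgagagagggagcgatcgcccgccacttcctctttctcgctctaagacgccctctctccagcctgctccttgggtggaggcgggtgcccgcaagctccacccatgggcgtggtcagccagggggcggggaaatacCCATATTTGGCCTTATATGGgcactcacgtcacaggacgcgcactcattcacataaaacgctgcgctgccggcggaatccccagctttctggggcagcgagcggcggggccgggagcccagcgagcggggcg
Dusp8 (chr7:142095235-142095534, minus strand): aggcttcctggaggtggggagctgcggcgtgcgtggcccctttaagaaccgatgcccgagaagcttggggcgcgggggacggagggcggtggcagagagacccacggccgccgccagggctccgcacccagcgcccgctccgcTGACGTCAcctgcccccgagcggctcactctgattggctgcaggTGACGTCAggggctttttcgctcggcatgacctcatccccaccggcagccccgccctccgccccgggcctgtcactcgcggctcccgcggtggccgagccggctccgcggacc
The Dusp1 match began 143 bases before the start, and that start is the first base of the Dusp1-206 model. Dusp8 had a pair of such elements, 107 and 63 bases before the start, and 0.0396% of all windows have 2 or more at any position. Dusp5 had a pair of CArG boxes side by side, 82 and 72 bases before the RefSeq start. Of all windows, 0.0183% have 2 or more CArG boxes at any position, and how many have them side by side was not counted. The transcript of Dusp5 in the deposited annotation begins 36 bases before that start. Dusp1, with 1 exact match of the cAMP response element, was at 575 and 679 TPM, and Dusp8, with 2, at 1.60 and 1.82 TPM. Whether these matches bear on the levels was not tested.

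The 3′ untranslated region of short-lived mRNAs often carries AU-rich elements built on the pentamer ATTTA, to which proteins that destabilise or stabilise mRNA bind. Dusp1 had 4 pentamers in 690 bases and Dusp2 had 4 in 581 bases, or 5.80 and 6.88 per kb. Across the leading coding transcripts of 9165 genes, each with 100 or more bases of 3′ untranslated region and a mean of 1 TPM or more, the median was 1.36 per kb, 69.0% had at least 1 pentamer and 6.84% had more than 5 per kb. Of the longer form TATTTAT, Dusp1 held 3 copies, Dusp8 held 2 and Dusp2 held 1, and 28.5% of the transcripts held at least 1. The members other than Dusp1 and Dusp2 ranged from 0 pentamers in the 1778 bases of Dusp7 to 5 in the 2370 bases of Dusp8, and none of them had more than 2.70 per kb. Stretches of 30 bases with 2 pentamers were also present in Dusp8, Dusp10 and Dusp16. Those of Dusp1 and Dusp2, the members above 5 per kb, are shown with ATTTA in capitals.
Dusp1: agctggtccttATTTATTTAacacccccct
Dusp2: aaattaATTTAattaattaATTTActatat

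The members lie on 10 different chromosomes. Dusp2 (ENSMUSG00000027368.6) is at chr2:127336159-127338376, Dusp3 (ENSMUSG00000003518.13) at chr11:101971143-101987013, Dusp4 (ENSMUSG00000031530.6) at chr8:34807297-34819894 and Dusp5 (ENSMUSG00000034765.6) at chr19:53529109-53542431, all on mm10. Dusp6 (ENSMUSG00000019960.8) is at chr10:99263231-99267489, Dusp7 (ENSMUSG00000053716.9) at chr9:106368632-106375724 and Dusp8 (ENSMUSG00000037887.11) at chr7:142079490-142095843. Dusp10 (ENSMUSG00000039384.8) is at chr1:184013302-184075636 and Dusp16 (ENSMUSG00000030203.17) at chr6:134715468-134792625. Of the 10 genes, 6 overlap another annotated gene, and whether the counting used strand is not stated. Ergic1, on the strand opposite to Dusp1, had 3514 and 3127 counts, and Gm20659, antisense to Dusp3, had 216 and 265. The other overlapping genes had at most 4 counts.

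The genes closest in level to Dusp1 and to Dusp4 were sought among 21900 protein-coding genes by distance in log2(TPM + 1) over the 2 libraries. Nearest to Dusp1 were Arhgdib at 574 and 688 TPM, Ybx1 at 586 and 655 TPM, and Sqstm1 at 608 and 695 TPM. Nearest to Dusp4 were Iigp1 at 6.34 and 23.4 TPM, Malt1 at 6.57 and 20.2 TPM, and Nfkbie at 7.95 and 20.4 TPM. With 2 libraries this is likeness in level only.

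The kinases that these phosphatases act on were mostly present. Of 13 MAP kinase genes 7 were detected, led by Mapk3 (ERK1) at 130 and 155 TPM, and among them Mapk6 (ERK3) at 65.0 and 87.8 TPM. Named for their role after their values had been seen, the p38 gene Mapk14 was at 68.0 and 72.9 TPM, the JNK genes Mapk9 and Mapk8 were at 26.1 and 29.5 TPM and at 5.93 and 10.7 TPM, and Mapk4, Mapk10, Mapk12, Mapk13 and Mapk15 were below 1 TPM in both. Of 8 tested, 4 were called higher in replicate 1 and 3 in replicate 2, against 29.3% and 30.0% of all genes tested. All 7 MAP kinase kinase genes, which activate the MAP kinases, were detected, with Map2k1 at 46.5 and 51.8 TPM, Map2k2 at 46.9 and 50.2 TPM, and Map2k3 at 36.3 and 33.7 TPM. Of these 7, 1 was called higher in replicate 1, 2 in replicate 2 and 4 in neither, beside the same shares of all genes tested.

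Genes that MAP kinase signalling is known to switch on stood higher. All 8 immediate early genes of the list were detected, with Fos at 1211 and 822 TPM, Egr1 at 700 and 618 TPM, and Junb at 532 and 748 TPM. Of the 8, 3 were called higher in replicate 1 (29.3% of all genes tested), 3 in replicate 2 (30.0%) and 2 in neither.

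Other phosphatases and inhibitors were measured beside them. Of the 14 other DUSP genes 7 were detected, led by Dusp11, a phosphatase of RNA, at 21.9 and 26.4 TPM, Dusp22 at 14.0 and 17.6 TPM, and Dusp12 at 9.19 and 12.1 TPM. Dusp9, the third cytoplasmic ERK phosphatase, was at 0.72 and 0.56 TPM, and Dusp13, Dusp14, Dusp15, Dusp21, Dusp26 and Styxl1 were also below 1 TPM in both, the last 4 of them at 0 counts. Of 10 tested, 1 was called higher in replicate 1 (29.3% of all genes tested), 3 in replicate 2 (30.0%) and 6 in neither. Ptpn7, a tyrosine phosphatase of ERK and p38 in blood cells, was at 15.8 and 22.0 TPM and was called higher in replicate 2, while its relatives Ptpn5 and Ptprr had at most 1 count. Of 6 Sprouty and Spred genes, inhibitors of the steps from receptor to ERK, 3 were detected, namely Spred1 at 16.2 and 22.2 TPM, Spry2 at 4.39 and 3.83 TPM, and Spred2 at 2.91 and 2.83 TPM. Spry1, Spry4 and Spred3 were below 1 TPM in both. Of 5 tested, 1 was called higher in replicate 1 and 2 in replicate 2, against 29.3% and 30.0% of all genes tested. The median level of the members was 22.0 and 26.7 TPM, against 0.89 and 1.29 TPM over the 14 other DUSP genes, 4 of them at 0 counts. Over all genes tested, which needed 10 or more counts, it was 8.45 and 9.62 TPM. The other DUSP genes were not filtered in this way, so their median and that of all genes tested cover unlike sets.

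**Figure D5:**
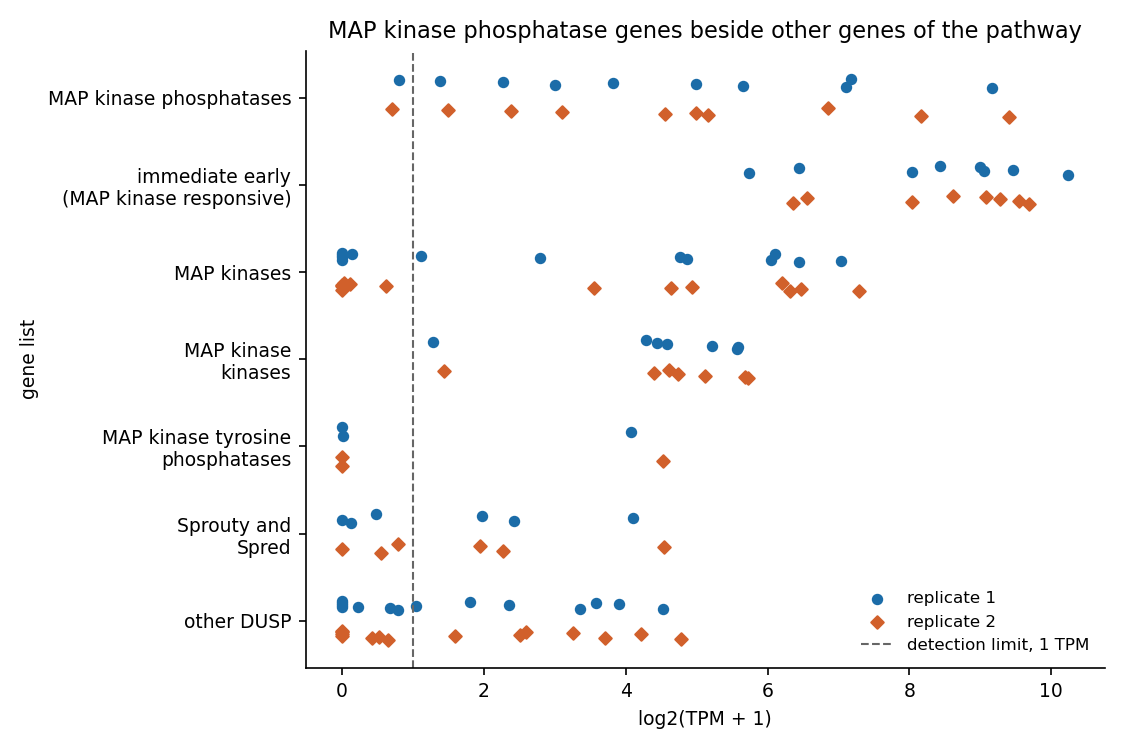
Level as log2(TPM + 1) of every gene of each list, in replicate 1 (blue circles) and replicate 2 (orange diamonds), with the detection limit dashed. Among the lists plotted, the immediate early genes have the highest median, 426 and 465 TPM, the members spread from Dusp10 at 0.74 and 0.63 TPM to Dusp1 at 575 and 679 TPM, and the other DUSP genes end at 21.9 and 26.4 TPM.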

How the data were processed

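The deposited text files name assembly mm10 and annotation M21. For quantification, tools and versions were not given in the sources used here. Expected counts per gene and transcript, not normalized and often fractional, were deposited by the authors with TPM, which sums to the same fixed total in each library. The transcript tables also held, per the file headers, the percent of a gene that each transcript takes, used as a check of the shares computed from TPM. FPKM and interval columns were not used. A second transcript table with estimated counts and TPM, also deposited, served as an alternative, summed per gene. Entries outside genes held 0.104% and 0.0908% of the counts of replicates 1 and 2 and were left out.

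From these, levels were given as TPM, mean and SD. Expected counts were rounded and compared by the exact binomial test with TMM sizes (edgeR 4.0.16, factors 0.956 and 1.046; R 4.3.3) and Python 3.11.15 with scipy 1.17.1, and the script was tested on simulated data. A count of 0 allows up to 3 counts, or 0.0794 and 0.0578 CPM. Without molecular identifiers, intervals and this limit cover counting error only. Alternatives were total counts, DESeq2 1.42.0 size factors, the second quantification, no count filter, pseudocounts of 1 and 0.1 on the log2 scale, and each library alone. Detection limits of 0.5 and 5 TPM and a leading share of 80% were also tried. Sequences came from GENCODE M21 transcripts and from RefSeq promoters (GRCm38.p6).

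The members, lists and rules were chosen with earlier results of these data known. Named were all members, the 3 genes of highest mean TPM and those below 1 TPM in both libraries of each pathway list, the 3 nearest genes of Dusp1 and Dusp4, and transcripts at 10% or more; other genes are named as chosen after their values were seen, or as cell type markers. Some genes of these lists are counted but not reported here by name. The labels' replicate numbers name samples of the same group, so p-values ask only whether these libraries differed by more than counting error. A difference beyond it may be technical or biological.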

Additional observations from a re-analysis of the deposited data

How the results depend on the processing

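The number of members detected (9) was the same in the second quantification and in each library alone. It moved only with the detection limit, to 10 at 0.5 TPM and to 7 at 5 TPM. Under the alternatives, the number called beyond counting error (6) ranged from 6 to 8. The number beyond 1.5-fold (4) ranged from 3 to 4. The number with a leading transcript (8) was 9 in the second quantification and in each library alone. It was 6 when a share of 80% was required in place of 50%. All stayed within 1.5 times of the main count, which is a wide margin for counts out of 10. Scaling by total counts moved the median log2 ratio of all genes tested from -0.01 under TMM to -0.14, and the share of calls higher in replicate 1 to 31.4%, against 49.4% under TMM. Then 3 members were called higher in replicate 1, against 18.5% of all genes tested, and 5 in replicate 2, against 40.5%. In the second quantification the median was 0.08, with 4 members called higher in replicate 1, against 31.5% of all genes tested, and 2 in replicate 2, against 26.9%. Dusp7 reversed under total counts, from 0.02 to -0.11, since a change of scaling alone shifts the log2 ratio of every gene by the same amount. Of 40 tested ratios under alternatives, 35 kept their direction and side of the threshold, 3 passed it, 1 fell short and 1 reversed. Of 20 TPM ratios with a pseudocount, which have no test, 12 lay within the counting interval and 8 outside it. Dusp10, with 47 and 56 counts, and Dusp8, with 182 and 291, carry the widest intervals. No paired analysis was possible because both libraries belong to the same group.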
